A study of Mus musculus with 9 samples.

Results

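The genes described here carry out antigen processing for major histocompatibility complex (MHC) class I. The list was drawn up by function, with earlier results of these data known. It holds 10 mouse genes, among them the heavy chains H2-K1 and H2-D1, the light chain B2m and the peptide transporter genes Tap1 and Tap2. The others are the loading factor Tapbp, the immunoproteasome subunits Psmb8 and Psmb9, and the proteasome activator subunits Psme1 and Psme2. A probe was assigned to a gene through the transcript accession that the array files give for it. Of the 10 genes, 8 had a probe, 12 probes in all among 41174 on the array. H2-K1 and H2-D1 were not analysed here. All 12 probes were well above background on all 9 arrays, so a filter on dim probes, which left 36585 probes and 15808 named genes of 16535, removed none of them.

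Every value below comes from 1 mouse cell line, FDCPmix, whose cells are multipotent blood progenitors able to renew themselves in culture. Under self-renewal conditions the cells received lentivirus with an shRNA (short hairpin RNA, which lowers the transcript of its target) against Gata2 (Gata2 KD) or Pu.1 (Pu.1 KD), or empty virus (EV). All 9 samples, 3 in each group, were therefore transduced, and all were sorted for viable GFP+ cells 5 days later. Gata2 encodes a transcription factor of stem cells and progenitors, and Spi1 encodes PU.1, a factor of myeloid and lymphoid cells. The study's methods describe triplicate samples that were transduced, and its text a gene-specific shRNA against Gata2. Whether the 3 samples of a group were grown as separate cultures before transduction is not stated, and the p-values measure the spread between these samples.

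Nearly all nucleated cells display peptides from their own cytosolic proteins on MHC class I. Proteasomes cut the proteins, the TAP transporter moves the peptides into the endoplasmic reticulum, and the loading complex fits them to a heavy chain bound to beta-2 microglobulin, which then travels to the cell surface for inspection by CD8 T cells and NK cells. Many of these genes are known to respond to interferon, which acts through IRF1 and related factors, and the transcription coactivator NLRC5 is known to act on class I promoters.

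The DNA just before the start of 3 of the member loci is shown, because B2m, Tap1 and Psmb9 were among the members with the largest differences below and Psmb8 is the partner of Psmb9 in the immunoproteasome. Tap1 and Psmb9 start back to back and share the stretch between their start sites. The windows are RefSeq promoter sequence of build GRCm38.p6, written 5′ to 3′ on the strand given, and end before the first transcribed base. Capitals mark matches, on either strand, to an interferon-stimulated response element (ISRE, GAAA followed by NN and GAAA), a gamma-activated sequence (GAS, TTCNNNGAA), the NF-kB consensus or a CCAAT box (CCAAT).
B2m, chr2:122147437-122147686, plus strand: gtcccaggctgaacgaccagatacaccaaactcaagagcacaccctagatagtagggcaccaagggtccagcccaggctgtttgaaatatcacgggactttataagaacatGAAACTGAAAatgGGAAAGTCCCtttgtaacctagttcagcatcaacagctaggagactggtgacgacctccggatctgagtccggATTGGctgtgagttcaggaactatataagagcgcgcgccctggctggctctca
Tap1 and Psmb9, chr17:34187331-34187555, plus strand, from the Psmb9 start (left) to the Tap1 start (right): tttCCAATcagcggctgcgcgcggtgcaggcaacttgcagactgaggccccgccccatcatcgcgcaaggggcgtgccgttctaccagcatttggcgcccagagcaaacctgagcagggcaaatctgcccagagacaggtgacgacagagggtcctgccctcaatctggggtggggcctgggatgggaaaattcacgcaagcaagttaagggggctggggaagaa
Psmb8, chr17:34197945-34198194, plus strand: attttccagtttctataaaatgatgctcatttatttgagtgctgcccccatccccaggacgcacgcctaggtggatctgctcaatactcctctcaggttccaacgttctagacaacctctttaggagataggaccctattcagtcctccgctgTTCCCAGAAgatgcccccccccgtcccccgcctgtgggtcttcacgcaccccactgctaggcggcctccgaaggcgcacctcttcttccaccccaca

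The B2m window held the ISRE letters ending 130 bases before the start, the NF-kB consensus ending at 117 bases and a CCAAT box ending at 49 bases. In the 225 bases between Psmb9 and Tap1 the search found a CCAAT box, beginning 4 bases from the Psmb9 start, and none of the other motifs. The Psmb8 window held the GAS letters ending 89 bases before the start. Of the 10 members 9 had a promoter window in the table, 11 windows in all, and Tap2 had none. The ISRE letters were found for B2m alone among the 9 and the GAS letters for Psmb8 alone, against 2.98% and 7.02% of the 32851 promoter windows in the table over the same 250 bases. The NF-kB consensus, held by 7.25% of all windows, was also found for H2-K1 and H2-D1, and the CCAAT box, held by 33.8%, for H2-K1, H2-D1 and Tapbp. None of the 11 windows held the PU.1 motif GGAAGTG (8.55% of all windows), the GATA motif AGATAAG (2.74%) or the ETS-IRF composite, GGAA followed by NN and GAAA (2.3%), which can overlap the ISRE letters. These are matches of letters in a short window and do not show binding.

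Between 80.4% and 89.6% of the spots of each array were well above background. With 3 arrays a group, precision is limited by their number. Levels are log2 signal minus the 75th percentile of the same array, so 0 is the level of that percentile. The arrays lay on 3 slides with 1 array of each group on each, and differences within slides are given beside the pooled ones. EV replicate 3 stood somewhat apart: its mean correlation with the remaining arrays, across probes, was 0.960, and theirs were 0.971 or more. Gata2 was lower in Gata2 KD than in EV by a log2 change of -1.61 (adjusted p 0.00414), and Spi1 was lower in Pu.1 KD by -1.73 (adjusted p 0.00178) and higher in Gata2 KD by 1.39 (adjusted p 0.0012, limma with Benjamini-Hochberg adjustment over all probes, as throughout). The 8 progenitor markers examined were well above background in every group, but some changed. In Gata2 KD 3 were called higher than in EV and 3 lower, Gata2 itself among the lower. In Pu.1 KD 1 was called higher and 2 lower. Of all genes, 4.21% were called higher and 2.95% lower in Gata2 KD, and 1.45% and 2.16% in Pu.1 KD. Markers of mature cells moved with the groups. All 8 neutrophil markers and 5 of 6 monocyte and macrophage markers tested were higher in Gata2 KD than in EV, 6 of 8 neutrophil markers were lower in Pu.1 KD, and 6 of 8 mast cell and basophil markers were lower in Gata2 KD.

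In Pu.1 KD, Psmb9 rose by 0.69 on the log2 scale, and Tap1 showed the largest difference of any member, 1.495, with an adjusted p just above the threshold of 0.05. In Gata2 KD, B2m and Psmb9 stood higher than in EV by 0.65 and 0.45, and neither passed the test, although both did with slide as a block (adjusted p 0.0168 and 0.0469). Psmb8, Tapbp, Psme1 and Psme2 gave changes between -0.18 and 0.22 in both knockdowns. By count, 0 of the 8 members passed in Gata2 KD, where 7.15% of the 15808 genes did, and 1 of 8 passed in Pu.1 KD, where 3.61% did. At an unadjusted p under 0.05 the counts were 2 of 8 (17.9% of all genes) and 4 of 8 (14.4%). The comparisons with EV share the 3 EV arrays, so their values are not independent of each other. The samples are bulk RNA, in which fewer cells of a kind and less RNA per cell cannot be told apart.

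The 3 arrays of Gata2 KD lay above all 3 EV arrays for 4 of the 8 members, B2m, Tapbp, Psmb8 and Psmb9. Of all genes, 23.1% had groups that did not overlap, in either direction, and 9.5% lay above EV in this way. The 3 arrays of Pu.1 KD lay above EV for B2m, Tap1, Psmb8 and Psmb9. Groups did not overlap for 20.6% of all genes in either direction there, and 8.61% lay above EV. The median change of the 8 members was 0.33 in Gata2 KD, with 8 of 8 above 0, and 0.40 in Pu.1 KD, with 7 of 8 above 0. Over all genes tested the medians were -0.09 and -0.04. The members were chosen with earlier results of these data known, so these comparisons are a description. Tap1 and Tap2 were the members that varied most among the EV arrays, and Tapbp varied least there (SD 0.058).

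**Figure D1:**
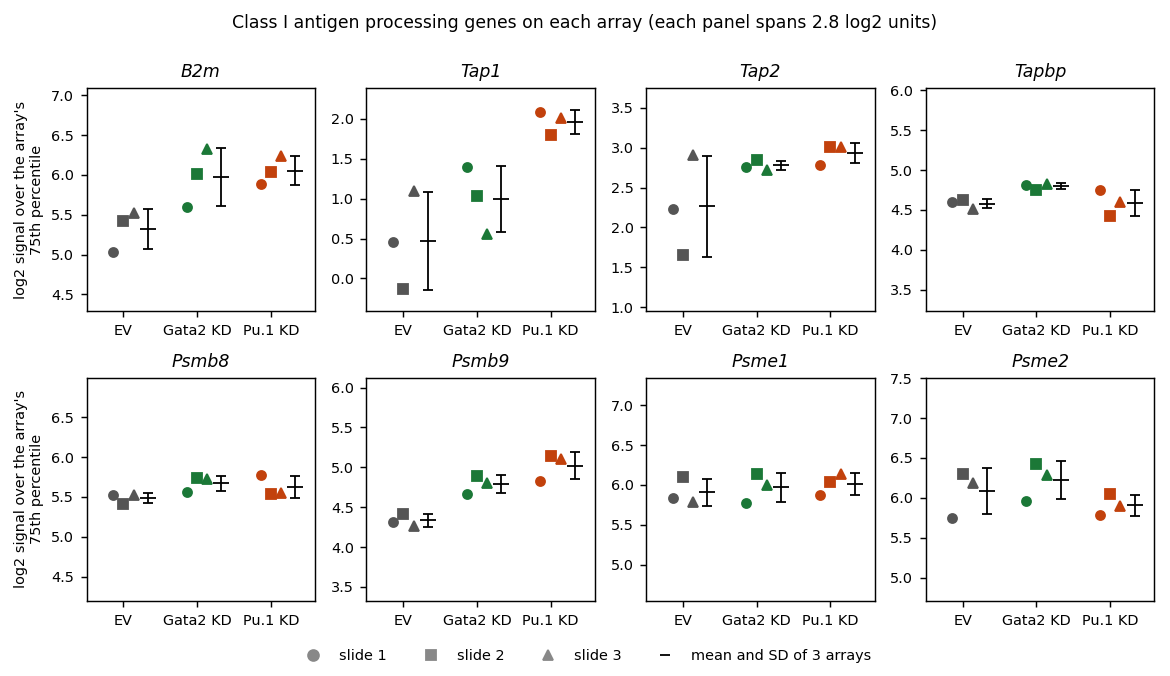
Level of the 8 members on each of the 9 arrays, for the brightest probe of each gene, as log2 signal over the 75th percentile of the array. Marker shapes give the slide, and the bars the mean and SD of the 3 arrays of a group. The Pu.1 KD arrays lie above the EV arrays without overlap for B2m, Tap1, Psmb8 and Psmb9, and the EV arrays are spread widely for Tap1 and Tap2.

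B2m encodes beta-2 microglobulin, the light chain without which class I heavy chains do not reach the surface. Its brightest probe read 5.04, 5.52 and 5.42 in EV replicates 1, 2 and 3. It read 6.32, 6.01 and 5.60 in the Gata2 KD replicates and 6.04, 6.24 and 5.88 in the Pu.1 KD replicates. Each knockdown array lay above each EV array, with the nearest pair being EV replicate 2 and Gata2 KD replicate 3. The log2 change was 0.65 in Gata2 KD (SE 0.22, 95% interval 0.15 to 1.16, 1.57-fold, adjusted p 0.184). In Pu.1 KD it was 0.73 (SE 0.22, 95% interval 0.22 to 1.24, 1.66-fold, adjusted p 0.168). Neither passed the threshold. Within slides the differences from EV were 0.56 to 0.80 in Gata2 KD and 0.62 to 0.84 in Pu.1 KD. With slide as a block both passed, with adjusted p values of 0.0168 and 0.0181. A dimmer B2m probe, printed on 10 spots, gave 0.50 and 0.45 with overlapping groups and SDs of 0.44 to 0.59, and was not called (adjusted p 0.723 and 0.835).

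Tap1 encodes 1 chain of the TAP transporter. It read 0.45, 1.09 and -0.14 in the EV replicates, the second widest spread of any member there (SD 0.61, n = 3). The Gata2 KD replicates read 0.56, 1.04 and 1.39, of which only replicate 3 lay above the highest EV array. The Pu.1 KD replicates read 1.79, 2.01 and 2.09, all above both other groups. The change in Pu.1 KD was 1.495 (SE 0.32, 95% interval 0.75 to 2.24, 2.82-fold), with an adjusted p of 0.0542 and differences within slides of 0.92 to 1.93. Of all probes tested, 0.23% rose more. Without EV replicate 2, the highest EV array, the change was 1.81 and passed (adjusted p 0.0355), and without EV replicate 3, the lowest, it was 1.19 (adjusted p 0.111). In Gata2 KD the change was 0.53 (SE 0.32, adjusted p 0.592), and the sign differed between slides, from -0.53 to 1.17. Leaving out EV replicate 2 gave 0.84, leaving out EV replicate 3 gave 0.22, and leaving out Gata2 KD replicate 3 gave 0.33, none of them called.

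Tap2 encodes the partner chain of the transporter. Its EV replicates read 2.23, 2.91 and 1.65, with the highest SD of the members in EV (0.63). The Gata2 KD replicates lay close together at 2.72, 2.84 and 2.76, and the Pu.1 KD replicates at 3.01, 3.01 and 2.79. EV replicate 2 overlapped both knockdown groups, while the other EV arrays lay below them. The change was 0.51 in Gata2 KD (SE 0.28, adjusted p 0.514) and 0.67 in Pu.1 KD (SE 0.28, adjusted p 0.377). Without EV replicate 2 these became 0.83 and 0.99, and without EV replicate 3 they became 0.20 and 0.36, so 1 EV array moved both by over 1.5 times. In no alternative did Tap2 pass the threshold. Tap1 and Tap2 had their highest EV value in replicate 2 and their lowest in replicate 3.

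Tapbp encodes tapasin, which bridges TAP and the heavy chain during peptide loading. Its EV replicates read 4.61, 4.51 and 4.62 and its Gata2 KD replicates 4.82, 4.75 and 4.82, so these groups did not overlap although the change was only 0.22 (SE 0.13, adjusted p 0.578). The Pu.1 KD replicates, from 4.42 in replicate 1 to 4.75 in replicate 3, spread across the EV values, with a change of 0.01 (adjusted p 1). A dimmer Tapbp probe, for another transcript, gave 0.25 and 0.18 with overlapping groups and was not called.

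Psmb9 encodes a catalytic subunit that replaces a constitutive subunit when the immunoproteasome is assembled. It was the only member to pass the test against EV. Its EV replicates read 4.32, 4.27 and 4.42, its Gata2 KD replicates 4.80, 4.89 and 4.67, and its Pu.1 KD replicates 5.14, 5.10 and 4.83. All knockdown arrays lay above all EV arrays, and the knockdown groups overlapped each other only through Pu.1 KD replicate 3. In Pu.1 KD the change was 0.69 (SE 0.14, 95% interval 0.37 to 1.01, 1.61-fold, adjusted p 0.0443), and within slides it was 0.51 to 0.84. In Gata2 KD it was 0.45 (SE 0.14, 95% interval 0.13 to 0.77, 1.37-fold, adjusted p 0.141), and within slides 0.35 to 0.54. With slide as a block the adjusted p was 0.0169 in Pu.1 KD and 0.0469 in Gata2 KD, so the block turned the call in Gata2 KD. The call in Pu.1 KD was close to the threshold. It passed under 8 of 21 alternatives, with adjusted p from 0.00411 to 0.201, and it was lost when any 1 of the 9 arrays was left out (0.069 to 0.192), while the change stayed between 0.63 and 0.79.

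Psmb8 encodes another inducible catalytic subunit. The EV replicates read 5.52, 5.53 and 5.41, the Gata2 KD replicates 5.72, 5.73 and 5.56, and the Pu.1 KD replicates 5.54, 5.55 and 5.78. Both knockdown groups lay above EV without overlap, but Pu.1 KD replicates 1 and 2 were only just above the highest EV array. The changes were 0.19 (SE 0.13, adjusted p 0.677) and 0.14 (SE 0.13, adjusted p 0.882). The second Psmb8 probe gave 0.26 and 0.14, also uncalled (adjusted p 0.51 and 0.902), and its Pu.1 KD arrays overlapped EV.

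Psmb10, the remaining inducible catalytic subunit, and the constitutive catalytic subunits were not called in either knockdown. Psmb10 changed by 0.21 in Gata2 KD and -0.07 in Pu.1 KD on the log2 scale. Psmb5 gave 0.04 and -0.20, Psmb6 gave -0.22 and -0.19, and Psmb7 gave -0.07 and 0.14. In the whole list of 14 constitutive 20S proteasome genes none was called in Gata2 KD, nor had any an unadjusted p under 0.05, and the median change was -0.20. In Pu.1 KD 1 was lower, Psma7, a structural alpha subunit, at -0.99 (adjusted p 0.00947), and the list's median was -0.13.

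Psme1 and Psme2 encode the alpha and beta subunits of PA28, a cap that opens the proteasome. Psme1 ranged from 5.78 to 6.10 in EV, 5.77 to 6.14 in Gata2 KD and 5.87 to 6.14 in Pu.1 KD, so the groups overlapped almost wholly. Its changes were 0.06 (95% interval -0.30 to 0.43) and 0.11 (95% interval -0.26 to 0.47). Psme2 ranged from 5.75 to 6.30 in EV, 5.96 to 6.42 in Gata2 KD and 5.78 to 6.04 in Pu.1 KD. Its changes were 0.14 (95% interval -0.30 to 0.59) and -0.18 (95% interval -0.62 to 0.27), and its second probe gave 0.10 and -0.17. Psme2 was the only member with a change below 0 in Pu.1 KD.

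**Figure D2:**
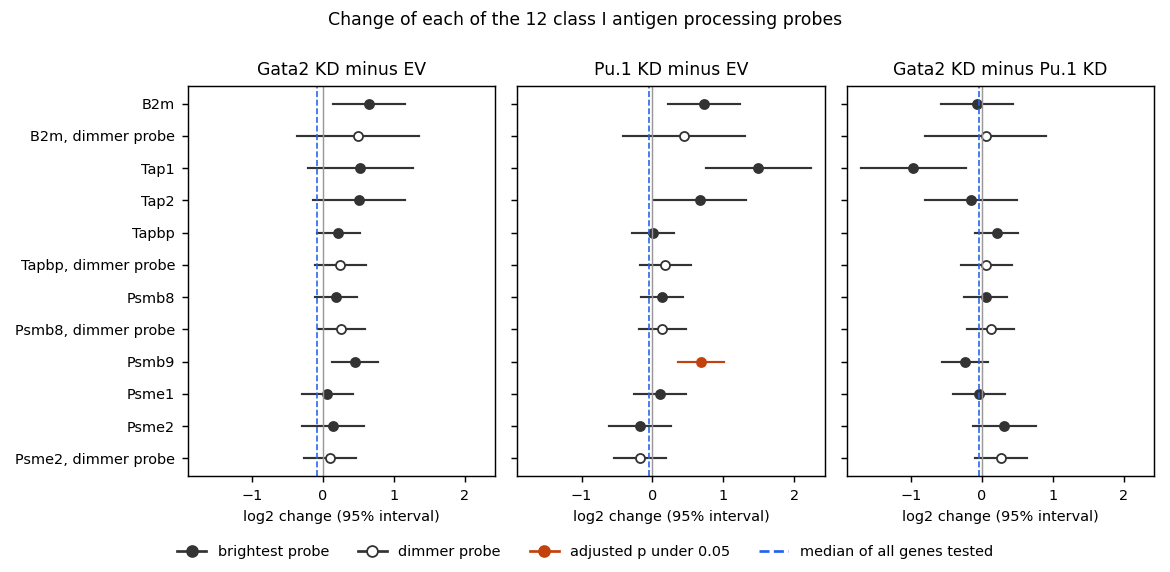
Log2 change of each of the 12 member probes in 3 comparisons, namely each knockdown against EV and Gata2 KD minus Pu.1 KD, with 95% intervals. The dashed line is the median of all genes tested, and orange marks an adjusted p under 0.05, which only Psmb9 in Pu.1 KD reached (0.69, interval 0.37 to 1.01).

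Set directly against each other, the knockdowns differed most for Tap1, and no member passed the test. By count, 0 of 8 were called, where 12.4% of all genes were, and at an unadjusted p under 0.05 the count was 1 of 8, Tap1, against 22.5% of genes. The Tap1 change in Gata2 KD relative to Pu.1 KD was -0.97 (SE 0.32, 95% interval -1.71 to -0.23, adjusted p 0.123), negative on all 3 slides from -1.45 to -0.70. Groups did not overlap for 2 of 8 members, Tap1 (lower in Gata2 KD) and Tapbp (higher in Gata2 KD), against 30.1% of all genes. Tapbp gave 0.21 (adjusted p 0.545), Psme2 0.32 (adjusted p 0.518) and Psmb9 -0.24 (adjusted p 0.503). B2m gave -0.08, with a 95% interval of -0.58 to 0.43. The member median was -0.06, and that of all genes -0.03.

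Which members passed depended on the processing. B2m, Tap1 and Psmb9 kept the sign of their changes against EV under every alternative. The plot across alternatives shows these changes, except that of Tap1 in Gata2 KD. B2m in both knockdowns, Tap1 in Pu.1 KD and Psmb9 in Gata2 KD gained a call under some alternatives, Psmb9 in Pu.1 KD lost its call under 13 of 21, and Tap1 in Gata2 KD passed under none (adjusted p 0.227 to 0.964). With the background corrected by normexp, or with the log2 values that the authors deposited, 3 members passed in Pu.1 KD, B2m, Tap1 and Psmb9. With the arrays scaled to their median, none did. Tap1 in Pu.1 KD passed under 6 of 21 alternatives (adjusted p 0.01 to 0.188), B2m under 4 (0.00631 to 0.496), and in Gata2 KD B2m passed under 3 (0.0104 to 0.486) and Psmb9 under 4 (0.0234 to 0.47). The member medians over the 6 scalings ran from 0.31 to 0.39 in Gata2 KD and from 0.40 to 0.45 in Pu.1 KD.

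**Figure D3:**
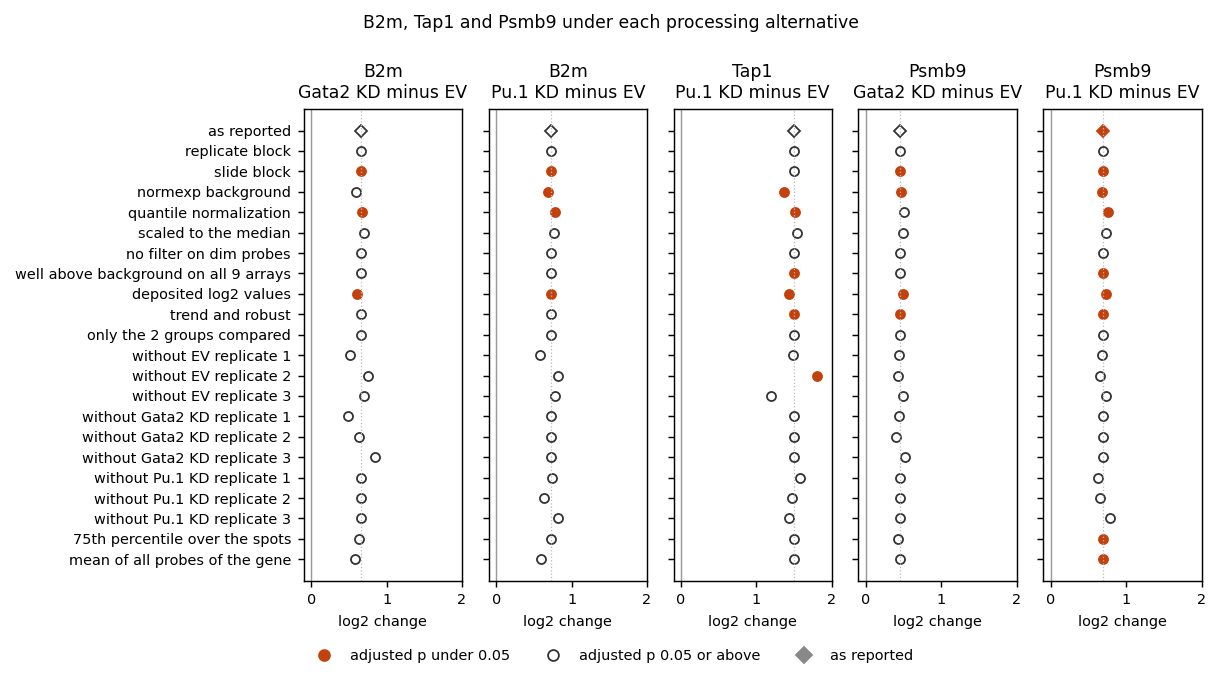
Log2 change of B2m and Psmb9 in each knockdown against EV, and of Tap1 in Pu.1 KD, as reported and under each alternative way of processing. The Tap1 change in Pu.1 KD lies between 1.19 and 1.81 and the Psmb9 change between 0.63 and 0.79.

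Other class I heavy chain genes give the partners of B2m on this array, since H2-K1 and H2-D1 were not analysed here. Of 14 such genes, listed with earlier results of these data known, 10 were tested. In Gata2 KD none was called, nor had any an unadjusted p under 0.05, the median change was 0.13 and no gene had groups that did not overlap. In Pu.1 KD 3 of 10 rose, where 1.45% of all genes were called higher: H2-Bl (1.02, adjusted p 0.0285), H2-Q7 (0.93, adjusted p 0.0285) and H2-Q10 (0.78, adjusted p 0.0461). H2-Q10, brightest of its 4 probes, read 5.23, 5.41 and 5.21 in EV, 5.19, 5.54 and 5.66 in Gata2 KD, and 6.16, 6.10 and 5.92 in Pu.1 KD. H2-Q7 read 4.82, 5.37 and 5.08 in EV, 5.21, 5.41 and 5.28 in Gata2 KD, and 6.11, 6.09 and 5.85 in Pu.1 KD. The Pu.1 KD arrays lay above all 6 others for both.

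The median change of the 10 heavy chains in Pu.1 KD was 0.78. In 7 of the 10, H2-Bl, H2-Q1, H2-Q2, H2-Q7, H2-Q10, H2-T22 and H2-T23, the Pu.1 KD arrays lay above EV without overlap, with changes of 0.61 to 1.02. Of all genes, 8.61% lay above EV without overlap. H2-M3, a nonclassical heavy chain that presents formylated peptides, lay below EV without overlap (-0.55, adjusted p 0.173). Against Pu.1 KD, Gata2 KD was lower for H2-Bl (-0.80, adjusted p 0.0326), H2-Q1 (-0.76, adjusted p 0.0494) and H2-Q7 (-0.72, adjusted p 0.0336), and higher for H2-M3 (0.72, adjusted p 0.0313). The calls of H2-Bl, H2-Q7 and H2-Q10 in Pu.1 KD held under 10, 10 and 7 of 20 alternatives. Between the knockdowns those of H2-Bl and H2-Q7 held under 12 of 20 each, and under 3 of the 9 that left out 1 array (adjusted p up to 0.118 and 0.128). Of the 4 H2-Q10 probes 3 were called and 1 gave 0.03, and the 2 dim H2-Bl probes were not called. Transcripts of many class I heavy chains are closely alike in sequence. How far these probes also read transcripts of one another, H2-K1 and H2-D1 among them, was not tested. These 10 genes may therefore not be separate readings.

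**Figure D4:**
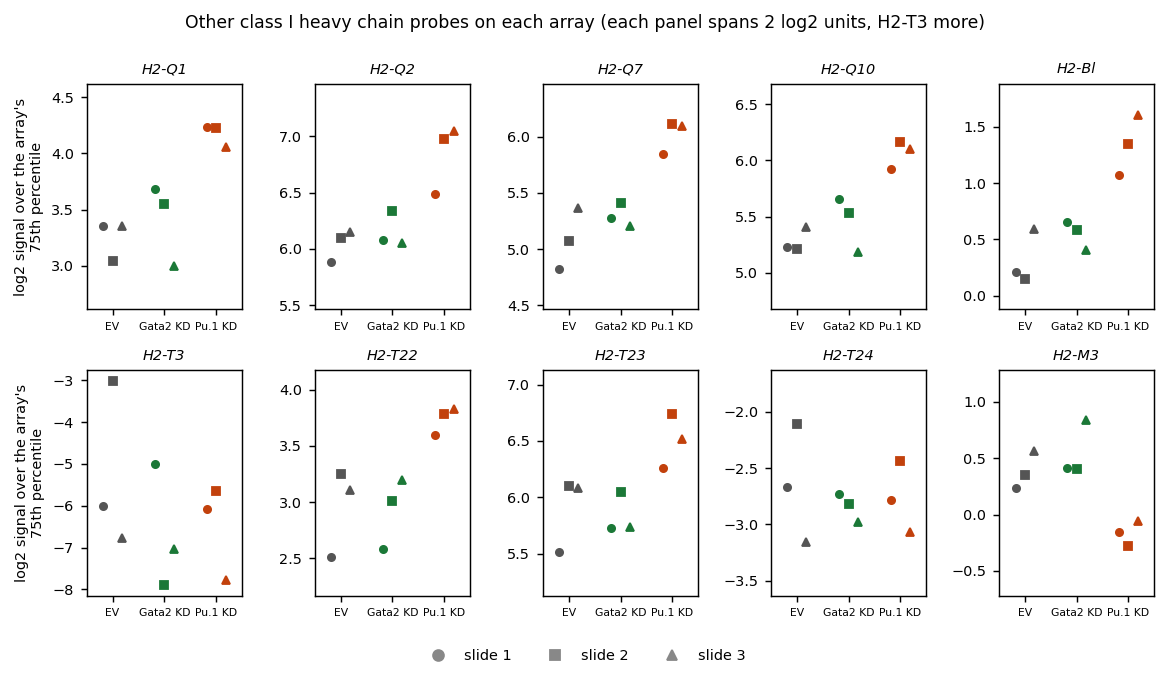
Level of the 10 other class I heavy chain genes tested on each array, as log2 signal over the 75th percentile of the array. Marker shapes give the slide. The Pu.1 KD arrays lie above the EV and Gata2 KD arrays for H2-Bl, H2-Q1, H2-Q2, H2-Q7, H2-Q10, H2-T22 and H2-T23, and below them for H2-M3.

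Among proteins that resemble class I heavy chains and pair with beta-2 microglobulin, 2 of 4 were called higher in Gata2 KD. Of all genes, 4.21% were called higher there. Fcgrt, which encodes the neonatal Fc receptor, rose by 2.96 (adjusted p 0.00116) and Hfe, which takes part in iron sensing, by 2.02 (adjusted p 0.000356). Neither passed in Pu.1 KD, where 0 of the 4 were called. At an unadjusted p under 0.05 there were Cd1d1 and Mr1, both higher than in EV, and Fcgrt, lower, against 14.4% of all genes. Relative to Pu.1 KD, Gata2 KD was higher by 3.80 for Fcgrt and 2.22 for Hfe and lower for Mr1, which presents metabolites, at -0.62 (adjusted p 0.0135). Of 7 tested chaperones and peptide-trimming factors of the endoplasmic reticulum, only Tapbpl, a peptide editor related to tapasin, was called, in Gata2 KD (0.93, adjusted p 0.00765). None of the 6 cytosolic peptidases was called in either knockdown, and at an unadjusted p under 0.05 there was Lap3, an aminopeptidase, in Gata2 KD alone. Psme4, a different proteasome activator, was lower when Gata2 KD was set against Pu.1 KD (-0.92, adjusted p 0.00173) and was not called against EV.

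In Gata2 KD the changes of Irf8 and Irf1 were larger than that of any member there. Irf8, a myeloid interferon regulatory factor that partners PU.1, rose by 4.38 (adjusted p 3.475e-06), from -1.87, -1.59 and -1.63 in EV to 2.74, 2.68 and 2.63. Irf1 rose by 0.80 (adjusted p 0.0115), a call that held under 18 of 20 alternatives. Rfxap, a subunit of the RFX complex that binds MHC promoters, fell in both knockdowns, by 0.66 (adjusted p 0.0157) and 1.17 (adjusted p 0.00308). In Pu.1 KD no regulator was called higher, and Irf1 gave 0.21. Set directly against Pu.1 KD, Gata2 KD was higher for Irf8 (4.80) and lower for Rfx5 (-0.85, adjusted p 0.00471). No probe was matched to Nlrc5.

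Interferon receptors and their kinases form the last list. In Gata2 KD 4 of 8 rose, where 4.21% of all genes were called higher and 2.95% lower. Among them were Ifngr2 at 1.44 (adjusted p 0.00144), Ifngr1 at 1.12 (adjusted p 0.0034) and Ifnar2 at 0.89 (adjusted p 0.021). Socs1, an inhibitor of the kinases, was lower at -0.85 (adjusted p 0.0167). In Pu.1 KD none rose and Jak2, a kinase of the gamma receptor, was lower at -1.04 (adjusted p 0.0125). Between the knockdowns 5 of 8 were higher in Gata2 KD, where 6.77% of all genes were. Ifngr2 stood at 1.22, Ifnar2 at 1.17 and Jak2 at 1.16, and Socs1 was lower.

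**Figure D5:**
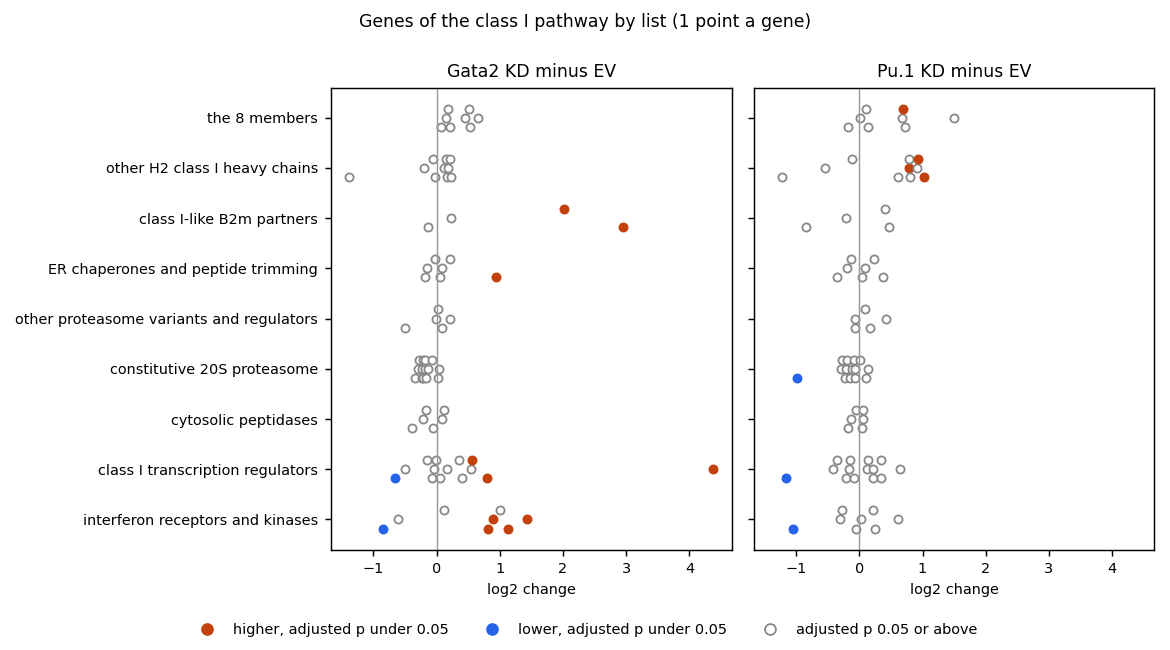
Log2 change of every tested gene of the class I lists, 1 point a gene, in Gata2 KD and in Pu.1 KD against EV, with filled points for an adjusted p under 0.05. The other heavy chains center on 0.13 in Gata2 KD and 0.78 in Pu.1 KD, and Irf8 stands at 4.38 in Gata2 KD.

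Markers of mature cells moved with the groups beside these results, and their part in them was not tested. The summed level of the 8 members, on the log2 scale, ranged over 7.91 to 8.14 in EV, 8.11 to 8.41 in Gata2 KD and 8.20 to 8.34 in Pu.1 KD. That of the 8 neutrophil markers ranged over 7.91 to 8.07, 10.12 to 10.38 and 6.72 to 6.96, and that of the 6 monocyte and macrophage markers over 2.24 to 2.37, 4.90 to 5.05 and 1.298 to 1.49. The members' summed level overlapped EV in Gata2 KD and lay above it in Pu.1 KD. The sums of the neutrophil and monocyte markers lay above EV in Gata2 KD and below it in Pu.1 KD. The sum of the 7 erythroid markers tested ranged over 3.27 to 3.39 in EV. It ranged over 2.89 to 3.50 in Gata2 KD and 3.98 to 4.18 in Pu.1 KD. The brightest genes weigh most in such sums. By gene, the median log2 change in Gata2 KD was -0.27 for the erythroid markers and 0.33 for the members. In Pu.1 KD these medians were 0.28 and 0.40. Of the 7 erythroid markers, Klf1, an erythroid transcription factor, and Epor, the erythropoietin receptor, were called. Both were higher in Pu.1 KD (0.84 and 0.87) and lower in Gata2 KD (-1.77 and -0.65). The sum of the 8 dendritic cell markers overlapped in all groups (1.44 to 1.62, 1.49 to 1.70 and 1.39 to 1.65) and none of these was called. The sum of the mast cell and basophil markers ranged over 8.12 to 8.30, 6.01 to 6.29 and 8.18 to 8.33. In Pu.1 KD 1 of these 8 markers was called higher than in EV, Cma1, and 2 lower, Hdc and Fcer1a. The median change of the list there was -0.55.

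The members did not move as 1 block across arrays. Over the 9 arrays the 28 pairs of members had correlations of level from -0.49 to 0.85, with a median of 0.33 and 20 above 0. After group means were removed the median was -0.075, with 12 above 0. All 9 points share the arrays' scaling and the groups. The mean of the 8 members, each centred on its own mean, was -0.35, -0.10 and -0.35 in the EV replicates, 0.08, 0.16 and -0.01 in the Gata2 KD replicates and 0.18, 0.24 and 0.15 in the Pu.1 KD replicates. The genes whose level over the 9 arrays was most like that mean were Dtx3 (r = 0.98), Mllt6 (0.96), Jak3 (0.96), Nek8 (0.95) and Crebzf (0.94), given as a description.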

How the data were processed

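A total of 9 arrays of total RNA (150 ng, Cy3, 1 colour) were described as 3 groups by the labels. The authors deposited Agilent Feature Extraction (10.1.1.1) files with processed signal as linear intensity, and a table of log2 values whose processing is not given in the sources used here. The log2 table followed the log2 median signal of each array (r = 0.997 to 1, column medians 7.00 to 7.05) and served as an alternative only.

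Spots were averaged per probe after control spots and outlier-flagged spots were left out. Values are log2 processed intensity minus the 75th percentile of the array. Probes well above background on at least 3 of 9 arrays, with 2 values in each group, were tested (36585 of 41174). limma 3.58.1 in R 4.3.3 was fitted to all 9 arrays with no block, two-sided, at a threshold of 0.05 after Benjamini-Hochberg adjustment across every probe tested. The scripts were tested on simulated data. For a gene with several probes the brightest was used. Symbols came from RefSeq (GRCm38.p6) through the accession in the files, for 23374 probes. The array design names build mm8, so no probe coordinates are given.

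Named genes were all members, Gata2 and Spi1, Psmb10, Psmb5, Psmb6, Psmb7, Nlrc5 and Irf1, up to 3 called genes of largest change per list and comparison, and the 5 genes most like the member mean. Of the listed regulators 1 is not reported here. H2-Q2, H2-T22 and H2-T23 were named after their values were seen. The members and lists were chosen with earlier results of these data known. Alternatives were replicate number or slide as a block, normexp background (on the median signal, since the planned mean signal was not used here), quantile or median scaling, other filters, the deposited log2 values, a trended robust fit, the 2 compared groups alone, the mean of a gene's probes, each array left out and, chosen after seeing the data, the percentile taken over spots.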

Additional observations from a re-analysis of the deposited data

How the results depend on the processing

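The calls rest on 3 arrays in each group, and what was called changed with the processing. All 20 alternatives kept the calls of Gata2 in Gata2 KD and of Spi1 in both knockdowns against EV. In Gata2 KD against EV, where 0 members and 1902 probes (1084 higher, 818 lower) were called, 2 members passed with slide as a block (B2m and Psmb9) and with the deposited log2 values (B2m and Psmb9), and 1 with normexp (Psmb9), quantile normalization (B2m) or the trended robust fit (Psmb9). The probes called numbered 2886 with the slide block, 1203 with median scaling (839 higher, 364 lower, 69.7% against 57.0% higher) and 1114 with only the compared groups. In Pu.1 KD against EV, where 1 member and 986 probes were called, 3 members passed with normexp, quantile normalization or the deposited values (B2m, Tap1 and Psmb9 each time), 2 with the slide block (B2m and Psmb9), the filter on all 9 arrays or the trended robust fit (Tap1 and Psmb9 in both), and 0 with median scaling, no filter or only the compared groups. The probes called numbered 1875 with the slide block, 377 with median scaling, 1785 with the deposited values, 1575 with the trended robust fit and 223 with only the compared groups. Between the knockdowns, where 0 members and 3524 probes were called, 1 member passed with the deposited values (Tap1) and 2259 probes with median scaling. The causes were not tested.

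Whether replicate numbers pair the samples could not be told from the arrays. Same-numbered arrays of different groups had correlations of deviations from -0.552 to 0.652 over 9 pairs, against -0.0408 to 0.719 for arrays of 1 slide. Some same-numbered pairs also shared a slide, among them the highest, EV replicate 2 with Pu.1 KD replicate 2 (0.652). With replicate number as a block, 1172 probes were called in Gata2 KD and 234 in Pu.1 KD, and the members called in Pu.1 KD numbered 0.

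Leaving out 1 array at a time gave 0 to 0, 0 to 1 and 0 to 0 members and 1072 to 1700, 281 to 824 and 2206 to 3932 probes called in Gata2 KD, in Pu.1 KD and between them. Without EV replicate 2 the member called in Pu.1 KD was Tap1 in place of Psmb9. Without Gata2 KD replicate 2 or 3 the Gata2 KD count was 1072 or 1211, and without Gata2 KD replicate 2 the count between knockdowns was 2206. The Pu.1 KD count was 503 and 449 without EV replicates 1 and 2, 576 and 628 without Gata2 KD replicates 2 and 3, and 281, 364 and 345 without Pu.1 KD replicates 1, 2 and 3. Signs turned only for uncalled changes near 0. Psme2 in Gata2 KD ranged from -0.0214 (without EV replicate 1) to 0.273, and Psme1 there from -0.0204 (without Gata2 KD replicate 2) to 0.163. Tapbp in Pu.1 KD ranged from -0.0692 (without Pu.1 KD replicate 3) to 0.0937 and was -0.0237 without EV replicate 2. Between the knockdowns B2m ranged from -0.248 to 0.115 (without Gata2 KD replicate 3), with 0.0183 without Pu.1 KD replicate 2, and Psme1 from -0.127 to 0.056 (without Gata2 KD replicate 3), with 0.0184 without Pu.1 KD replicate 2.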
